A study of Mus musculus with 82 samples.

Results

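Trp53, Mdm2, Cdkn1a, Ccng1, Zmat3 and Trp53inp1, the gene of the transcription factor p53 and 5 of its well known target genes, were followed through nascent RNA of V6.5 mouse embryonic stem (ES) cells. The 6 genes were chosen by name from 24743 genes with a curated RefSeq span in GRCm38, and all 6 had sense reads in every assay. Nuclear run-on labels the RNA that engaged RNA polymerase extends, so that a read marks a polymerase and not a stable transcript. AGTuC is the bulk run-on assay with click chemistry, made with a sarkosyl concentration that breaks the nuclear membrane. inAGTuC is the same chemistry in intact nuclei with less detergent. scGRO–seq places intact labelled nuclei singly in wells, where the RNA receives a cell barcode. All cells were V6.5, kept on gelatin in serum medium with LIF, and the labels name no genotype, drug or DNA damage that sets any group apart. AGTuC had 2 libraries, inAGTuC 4 libraries and scGRO–seq 10 batches, in which 2512 kept cells of 35 libraries were summed. The labels do not say which libraries came from separate cultures, so that p-values measure only the spread between these samples. Both AGTuC libraries belong to a single experiment (Exp125c), so that assay and experiment cannot be told apart where AGTuC is compared.

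p53 is held low in unstressed cells because Mdm2, a ubiquitin ligase and itself a p53 target, marks it for degradation. When DNA is damaged p53 is stabilised and binds paired half-sites near its targets, which act in cell cycle arrest, DNA repair and cell death. In ES cells p53 is abundant, and Cdkn1a, the best known target, encodes p21, an inhibitor of cyclin-dependent kinases. Genes of this pathway can carry polymerase that has started but paused just after the start, which run-on in strong detergent releases.

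The sequences that the results turn on were read from GRCm38, 5′ to 3′ on the strand of the gene, and capitals mark the best match to the p53 consensus in the stretch. Mdm2 is shown because its p53-responsive second promoter lies in intron 1 and its AGTuC reads piled up around this stretch. They did so from before the marked match to past the end of the stretch. Only 1 start of Mdm2 is annotated, and the start from which these reads came was not tested. Cdkn1a is shown at both of its annotated starts because reads followed the inner start and not the outer one. The gap between Trp53 and Wrap53 is shown because both genes start from it in opposite directions.

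Mdm2 intron 1 before exon 2 (chr10:117710029-117710258, minus strand): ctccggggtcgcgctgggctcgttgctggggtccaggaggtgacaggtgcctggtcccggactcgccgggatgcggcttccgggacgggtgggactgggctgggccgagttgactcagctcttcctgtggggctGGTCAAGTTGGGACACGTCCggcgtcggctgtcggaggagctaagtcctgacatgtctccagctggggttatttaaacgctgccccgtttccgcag
Cdkn1a before the outer start (chr17:29090879-29090978, plus strand): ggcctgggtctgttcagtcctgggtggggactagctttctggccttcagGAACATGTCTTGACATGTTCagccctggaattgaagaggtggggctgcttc
Cdkn1a before the inner start (chr17:29093669-29093768, plus strand): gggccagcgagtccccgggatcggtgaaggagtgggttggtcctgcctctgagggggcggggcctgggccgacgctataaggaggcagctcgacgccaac
Trp53 to Wrap53 (chr11:69580251-69580358, plus strand): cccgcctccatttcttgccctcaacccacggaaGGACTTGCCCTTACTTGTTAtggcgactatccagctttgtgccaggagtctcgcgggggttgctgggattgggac

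The p53 consensus was searched on both strands from 3 kb before each start to the end of each span, with a spacer of 0 or 1 bases, at most 3 mismatches over 20 positions and none in the C and G of either core. Every gene held a match, from 1 in Trp53inp1 to 6 in Mdm2 and Zmat3. Per 10 kb searched there were 2.07 in Trp53, 2.41 in Mdm2, 2.35 in Cdkn1a, 5.14 in Ccng1, 1.77 in Zmat3 and 0.48 in Trp53inp1, and no background rate was counted over whole spans of other genes. Zmat3 and Trp53inp1 held one without a mismatch, in an intron of Zmat3 (1315 bp from the start) and before Trp53inp1 (position -1329 from the start). Mdm2, Cdkn1a and Ccng1 held matches with 1 mismatch, and the match in Mdm2 intron 1 (634 bp after the start) and the match before Trp53 (position -75) had 3. In Zmat3 a match with 2 mismatches overlapped the exact one. The best sites outside the stretches above follow, with the core C and G in capitals.

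Zmat3 intron (chr3:32364331-32364350, minus strand): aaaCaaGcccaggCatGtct
Trp53inp1 before the start (chr4:11155112-11155132, plus strand): aaaCatGtccaggaCtaGcct
Ccng1 before the start (chr11:40755462-40755481, minus strand): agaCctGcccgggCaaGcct
Ccng1 intron (chr11:40754936-40754955, minus strand): acgCaaGcccgggCtaGtct
Mdm2 intron (chr10:117699921-117699940, minus strand): ggaCttGtccagcCaaGttt

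The RefSeq promoter table held 4 of the 6 genes, with 5 promoters, of which 3 had a match. Of its 32851 promoters, of 300 bp each, 2.825% held a match with 3 or fewer mismatches and 0.1096% one with 1 or fewer. Over all these promoters there were 0.9903 matches per 10 kb, which is no rate for whole spans. A match is a description of letters and no measure of p53 binding, which was not assayed.

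Depth ran from 2231583 to 4755258 UMIs per AGTuC library, 622112 to 1461204 per inAGTuC library and 222963 to 4919704 per scGRO–seq batch. Kept cells had a median of 3424 UMIs. The promoter window is the first 500 bp of a span and the body is the rest without its last 500 bp. Over all genes the promoter window held a median of 20.71% of promoter and body UMIs in AGTuC, 3.401% in inAGTuC and 2.837% in scGRO–seq. The antisense strand held a median of 16.59%, 28.74% and 31.36% of the UMIs on gene spans, and inAGTuC replicate 3 (Exp234_c11) stood apart with 52.39%. All 10 ES cell markers were measured, with none at 0 in any assay, and their summed body level was 2508 to 2605 UMIs in AGTuC when the body UMIs of each sample were scaled to 1000000 (UPM below), 798.1 to 1296 in inAGTuC and 696.3 to 1676 in scGRO–seq. Of 16 markers of fibroblast, endoderm, trophoblast, neural and blood cells 15 were measured, and their sum was 142.1 to 144.9, 91.98 to 342.5 and 81.44 to 296.8. Col1a2, Lum and Afp were at 0 in AGTuC.

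**Figure D1:**
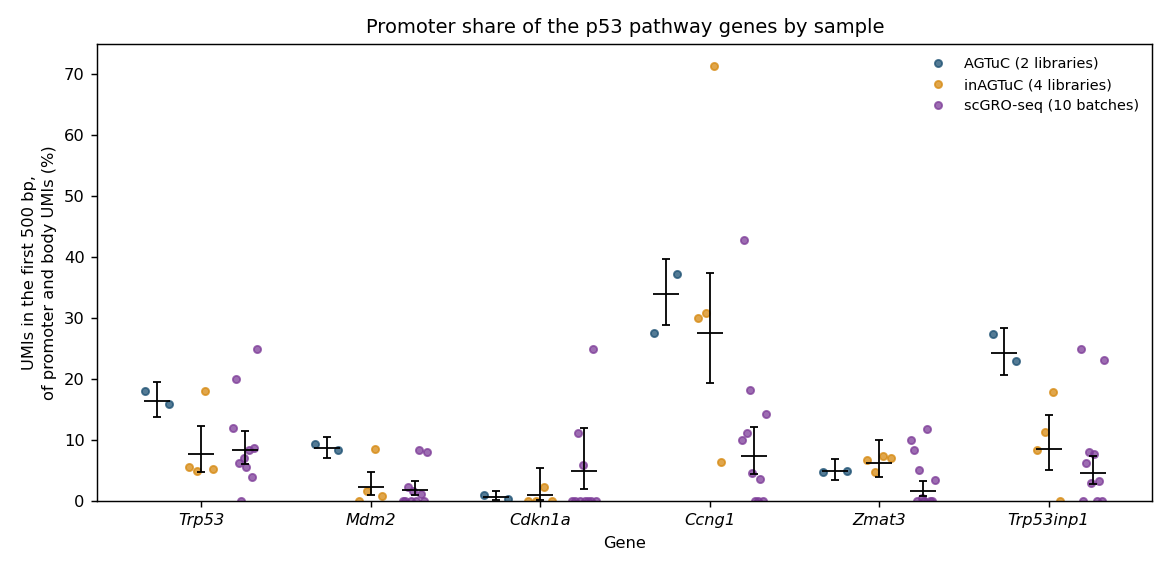
Promoter share of each gene in each sample, as UMIs in the first 500 bp in percent of promoter and body UMIs. Points are the 2 AGTuC libraries, 4 inAGTuC libraries and 10 scGRO–seq batches, and black bars give the pooled share with its 95% Wilson interval. By pooled share Trp53, Mdm2, Ccng1 and Trp53inp1 were highest in AGTuC, Zmat3 was under 10% in each assay, and Cdkn1a was nearly empty at its outer start.

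Trp53 encodes p53 and spans chr11:69580359-69591873 on the plus strand, with 1 annotated start. Its promoter share was 18.03% and 15.82% in the AGTuC libraries. In inAGTuC it was 5.556%, 4.878%, 17.95% and 5.208%, and in scGRO–seq it ran from 0 to 25.0% with a median of 7.688%. The AGTuC libraries lay above all inAGTuC libraries but replicate 3, and within the range of the batches. The pooled shares were 16.46%, 7.732% and 8.312%, from 105, 15 and 33 promoter UMIs. The densest 100 bp near the start of Trp53, where alone they were sought, began at 70 bp in AGTuC, as they did in both other assays. The promoter-to-body ratio was 1.25 ± 0.44 (SE) higher on the log2 scale in AGTuC than in inAGTuC (limma, adjusted p = 0.01315), and the difference of scGRO–seq from AGTuC was -1.07 ± 0.35 (adjusted p = 0.006126). Neither call held with a promoter window of 250 bp (0.67 and -0.84, adjusted p = 0.234 and 0.0738), nor the first without inAGTuC replicate 4 (0.92, adjusted p = 0.113). Its body level was 137.5 and 169.7 UPM in AGTuC. inAGTuC had 66.51, 85.82, 73.55 and 111.6, and the batches ran from 25.07 to 150.5 with a median of 64.12. Both AGTuC libraries lay above all inAGTuC libraries and above 9 of 10 batches, with Exp156 between them. Wrap53, which starts 109 bp away on the opposite strand and encodes a protein of telomerase assembly, had 327, 85 and 172 sense UMIs in the 3 assays.

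Mdm2, the ligase that restrains p53, spans chr10:117688875-117710758 on the minus strand. Fewer of its reads lay in the promoter window than in the 500 bp after it. The promoter share was 9.375% and 8.268% in AGTuC. inAGTuC gave 0, 1.587%, 8.511% and 0.8403%, where the 0 of 39 UMIs allows a share of up to 7.692%. scGRO–seq ran from 0 to 8.333%, with a median of 0.5495% and 5 of 10 batches at 0. AGTuC and inAGTuC overlapped only through inAGTuC replicate 3. The densest 100 bp was sought only near the start and not over the whole span. In AGTuC it began 520 bp after the start, inside intron 1, at the stretch printed above. In inAGTuC and scGRO–seq it began 730 and 760 bp after the start, with 6 UMIs in each. The 500 bp after the promoter window held 209 of 989 body UMIs in AGTuC, a pooled 21.13% (95% interval 18.7 to 23.79), and both libraries were near it at 21.03% and 21.17%. This window held 4.198% of body UMIs in inAGTuC (2.36 to 7.36) and 3.488% in scGRO–seq (2.218 to 5.446). The highest inAGTuC library reached 10.26% and the highest batch 18.18%, so that neither group overlapped AGTuC. Mdm2 had the highest body level of the 6 genes in AGTuC, at 265.9 and 309.6 UPM. inAGTuC had 152.6, 136.4, 98.83 and 144.7, and the batches ran from 61.36 to 184.7 with a median of 95.9. Neither group reached the AGTuC libraries.

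**Figure D2:**
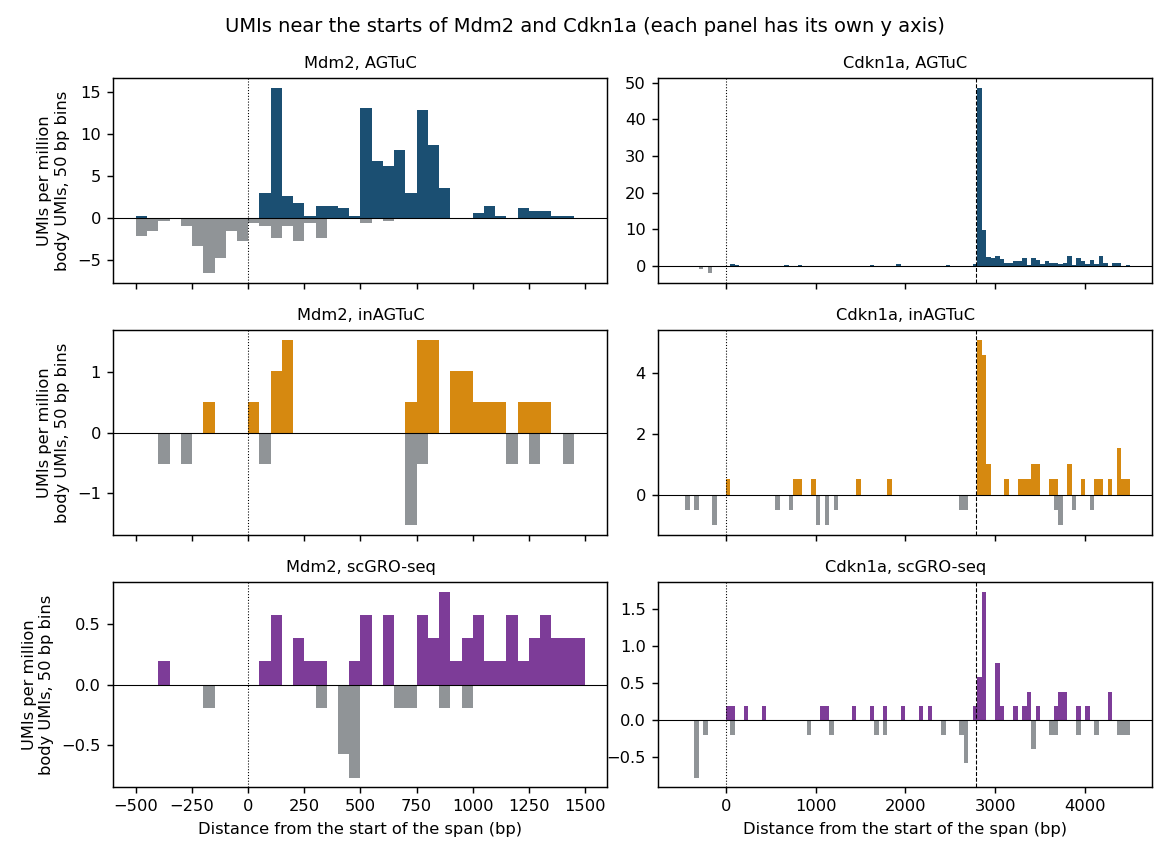
Sense UMIs (upward, coloured) and antisense UMIs (downward, grey) per 1000000 body UMIs in bins of 50 bp near the starts of Mdm2 (left) and Cdkn1a (right), summed over the samples of AGTuC, inAGTuC and scGRO–seq from top to bottom. The dotted line is the start of the span and the dashed line the inner start of Cdkn1a 2790 bp further on; AGTuC reads of Mdm2 lie near the start and again past 500 bp, and those of Cdkn1a rise right after the inner start.

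Cdkn1a, which encodes the cyclin-dependent kinase inhibitor p21, spans chr17:29090979-29100722 on the plus strand and has 2 annotated starts, 2790 bp apart. The outer start was nearly silent. The first 500 bp held 2 and 1 UMIs in the AGTuC libraries, beside 193 and 338 body UMIs, a single UMI in inAGTuC and 4 UMIs in scGRO–seq. The window after the inner start (chr17:29093769-29094268) held 47.15% and 43.49% of body UMIs in AGTuC. In inAGTuC it held 18.18%, 15.15%, 35.71% and 7.143%, and in scGRO–seq 0 to 66.67% with a median of 21.88%, from batches with 3 to 32 body UMIs. AGTuC lay above every inAGTuC library. The match to the p53 consensus with 1 mismatch lies beside the start with few reads. When windows after both starts were counted as promoter, the ratio was 2.00 ± 0.46 higher on the log2 scale in AGTuC than in inAGTuC (limma, adjusted p = 0.0003551) and the difference of scGRO–seq from AGTuC was -1.55 ± 0.45 (adjusted p = 0.002704). With the outer window alone Cdkn1a had too few promoter UMIs to be tested.

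The body level of Cdkn1a was 176.9 and 149.7 UPM in AGTuC. inAGTuC had 43.03, 72.62, 96.53 and 17.17, and the batches ran from 5.281 to 51.15 with a median of 19.53. No sample of either group reached AGTuC. Body UMIs were 531, 100 and 78 in the 3 assays, so that single batches rest on very few molecules. The log2 difference was 1.86 ± 0.47 between AGTuC and inAGTuC, and body level fell by 3.36 ± 0.44 from AGTuC to scGRO–seq. Without inAGTuC replicate 4 the first difference was 1.15 and still called. Without the window after the inner start the differences were 1.32 ± 0.42 and -2.82 ± 0.39, both still called (adjusted p = 0.02038 and 1.849e-05).

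Ccng1 encodes cyclin G1, which acts with phosphatase PP2A on Mdm2, and spans chr11:40748552-40755286 on the minus strand. Its promoter share was 27.55% and 37.31% in AGTuC, the highest of the 6 genes unless both starts of Cdkn1a are counted, which gave Cdkn1a a pooled 45.13%. Ccng1 is also the shortest of the 6 genes, at 6735 bp. The share falls with gene length, which was not accounted for in this order. inAGTuC had 30%, 30.77%, 71.43% and 6.383%, and scGRO–seq 0 to 42.86% with a median of 7.299%. Of the inAGTuC libraries 2 lay within the AGTuC range, 1 above and 1 below it. From AGTuC to scGRO–seq the ratio fell by 2.45 ± 0.59 on the log2 scale (limma, adjusted p = 0.0004521). Its body level was 65.09 and 53.6 UPM in AGTuC. inAGTuC had 27.38, 19.8, 13.79 and 53.96, and the batches 16.01 to 61.58 with a median of 33.16. The inAGTuC library with the low promoter share (replicate 4, Exp261_c16) and batch Exp156 lay within the AGTuC range.

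Zmat3, an RNA-binding zinc finger protein of the p53 response, spans chr3:32334792-32365665 on the minus strand and is the longest of the 6 genes. Its promoter share was low and even in the bulk assays, at 4.678% and 4.884% in AGTuC and 6.667%, 4.706%, 7.407% and 7.042% in inAGTuC. The groups overlapped. scGRO–seq ran from 0 to 11.76% with a median of 1.938%, and its deepest batch, Exp236, had 1 promoter UMI and 233 body UMIs. Zmat3 was the only one of the 5 tested genes with an estimate below 0 in AGTuC against inAGTuC, at -0.55 ± 0.53 (limma, adjusted p = 0.3482). From AGTuC to scGRO–seq it fell by 1.46 ± 0.56 (adjusted p = 0.01886). That call was lost without Exp236 (-0.80, adjusted p = 0.186) and with all scGRO–seq batches (adjusted p = 0.117). Body level was 149.4 and 181.2 UPM in AGTuC. inAGTuC had 109.5, 178.2, 114.9 and 80.95, and the batches ran from 68.36 to 149.6 with a median of 88.15. inAGTuC replicate 2 lay among the AGTuC libraries, and the highest batch, Exp246, lay just above the lower one. The lncRNA 4930429B21Rik overlaps the first 177 bp of Zmat3 on the opposite strand and had 54, 6 and 10 UMIs on its own strand.

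Trp53inp1, a nuclear protein of stress that acts with p53 in cell death and autophagy, spans chr4:11156441-11174379 on the plus strand. It had 27.34% and 22.94% of its UMIs in the promoter window in AGTuC. inAGTuC had 8.333%, 11.32%, 17.86% and 0, where the 0 of 47 UMIs allows a share of up to 6.383%. scGRO–seq ran from 0 to 25.0% with a median of 4.738%. AGTuC lay above all inAGTuC libraries, and its lower library was passed by 2 batches. The ratio differed between AGTuC and inAGTuC by 2.61 ± 0.61 on the log2 scale (limma, adjusted p = 0.0004727), and that of scGRO–seq from AGTuC was -2.40 ± 0.55 (adjusted p = 0.0002646). Without inAGTuC replicate 4, the library at 0, the first difference was 1.07 and was no longer called (adjusted p = 0.0544). Its body level was 92.6 and 111.6 UPM in AGTuC, 86.07, 103.4, 52.86 and 57.64 in inAGTuC, and 20.53 to 96.12 in the batches with a median of 58.59. inAGTuC replicate 2 and batch Exp211 lay within the AGTuC range. In the 500 bp before the start the antisense strand had 165 UMIs in AGTuC against 113 sense promoter UMIs. It had 2 in inAGTuC and 4 in scGRO–seq.

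The promoter-to-body ratio was thus higher in AGTuC than in inAGTuC in 3 of 5 tested genes, Trp53, Mdm2 and Trp53inp1, beside 72.4% of 11901 genes called higher in AGTuC and 0.975% called lower there. The median of the 5 genes was 1.25 and that of all genes 2.40, and the count over 5 genes is not set apart from that background by any test. Mdm2 gave 2.05 ± 0.55 (adjusted p = 0.001805) and Ccng1 0.62 ± 0.57 (adjusted p = 0.3205). From AGTuC to scGRO–seq all 5 tested genes fell, beside 79.2% of genes lower and 1.66% higher, with a median of -1.88 against -2.42 over all genes and -1.88 ± 0.45 for Mdm2 (adjusted p = 0.0003933). No call held without either AGTuC library in the first comparison, and without replicate 1 or 2 the second kept 1 or 0 calls. In the first, Trp53, Mdm2 and Trp53inp1 then gave 1.06, 1.89 and 2.10 without replicate 1 and 1.30, 2.10 and 2.44 without replicate 2, with SEs of 0.92 to 1.11. Without inAGTuC replicate 4 the first had 1 call and Ccng1 turned to -0.73, while without AGTuC replicate 2 Ccng1 gave -0.11. Without inAGTuC replicate 3 Ccng1 gave 1.39 and was called, which made 4.

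scGRO–seq and inAGTuC, both made at the low detergent concentration, showed no called difference in ratio for any of the 5 genes, and limma called 0% of 11901 genes higher and 0% lower, with 508 at an unadjusted p under 0.05. Zmat3 was among those 508, at -2.01 ± 0.60 (p = 0.002332, adjusted p = 0.9985), as was Ccng1, at -1.83 ± 0.68 (p = 0.01159). The other 3 had intervals that spanned 0 widely, such as -1.08 to 1.42 for Mdm2. Ccng1 gave -3.18 and was called without inAGTuC replicate 4. Exp208, Exp234 and Exp261 hold both assays, but the scGRO–seq library of Exp234 had 16 cells with enough UMIs, under the minimum of 24. In libraries of Exp208 and Exp261, with batch as a term, Ccng1 and Zmat3 gave 0.13 ± 1.02 and 0.12 ± 1.17, errors that leave both signs possible.

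**Figure D3:**
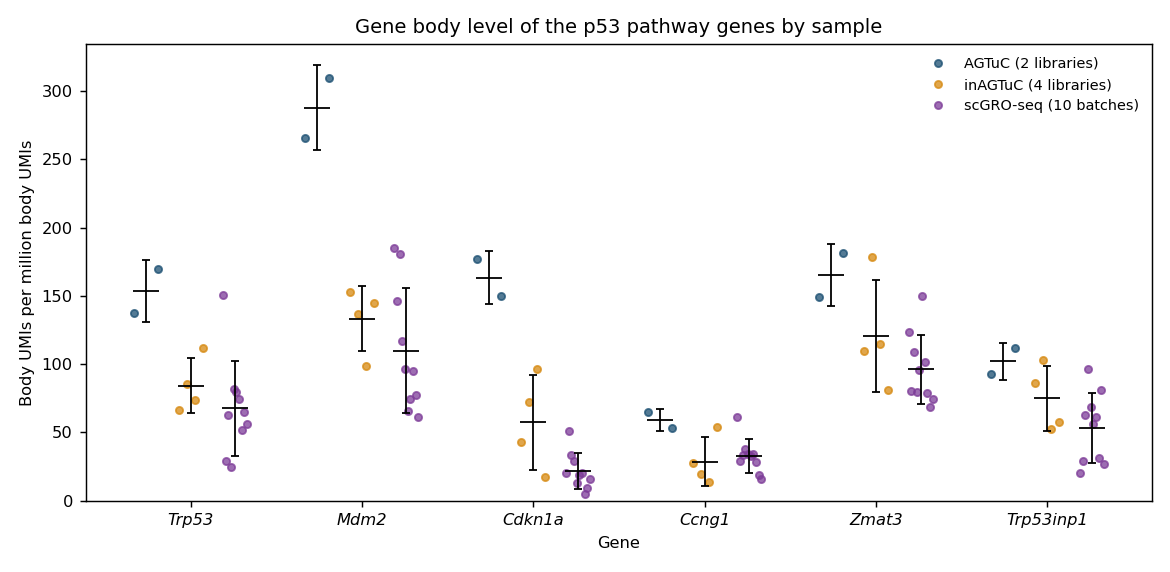
Body level of each gene in each sample, in body UMIs scaled to 1000000 body UMIs of the sample on a linear axis from 0. Points are samples, black bars the mean and SD of the 2 AGTuC libraries, 4 inAGTuC libraries and 10 scGRO–seq batches; Mdm2 and Cdkn1a in AGTuC lie above every inAGTuC library and every batch.

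Body level, the share of a sample's gene-body reads that falls in a gene, was higher in AGTuC than in inAGTuC for Mdm2 and Cdkn1a, 2 of 6 genes beside 17.1% of 14812 genes called higher and 16.9% lower. Mdm2 differed by 1.11 ± 0.29 on the log2 scale, 2.164-fold (limma, adjusted p = 0.006537), and Cdkn1a 3.623-fold (adjusted p = 0.00537). Trp53 gave 0.81 ± 0.32 and Ccng1 1.00 ± 0.40, both just short of the threshold (adjusted p = 0.05613 and 0.05615). Zmat3 and Trp53inp1 each gave 0.52, with errors of 0.28 and 0.36. From AGTuC to scGRO–seq all 6 genes fell, beside 32% of genes called lower and 19.9% called higher. The log2 differences were -1.27 ± 0.29 for Trp53, -1.53 ± 0.26 for Mdm2, -3.36 ± 0.44 for Cdkn1a, -0.89 ± 0.32 for Ccng1, -0.84 ± 0.25 for Zmat3 and -1.001 ± 0.33 for Trp53inp1, with adjusted p from 8.302e-06 for Cdkn1a to 0.02259 for Ccng1. The all-gene medians were 0.18 and -0.35. The 6 genes were denser than most in AGTuC, with a median of 12.06 UPM per kb against 1.514 over all genes tested. The part of density in these counts was not tested. Body levels are shares of reads from different run-on assays, and whether transcription itself differed was not tested. In a sum over cells, fewer cells that transcribe a gene and less transcription per cell cannot be told apart either.

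Without AGTuC replicate 2, which leaves 1 library in that group, Mdm2 and Cdkn1a gave 1.00 and 1.98 against inAGTuC, no member was called there and 2 were called in scGRO–seq against AGTuC, while without inAGTuC replicate 4 or without batch Exp156 the first count was 4. With the body taken from 2 kb after the start, Mdm2 and Cdkn1a stayed called (0.90 and 1.92) and Ccng1 in scGRO–seq was lost (-0.72, adjusted p = 0.07157). That call was also lost with quantile normalization (-0.57, adjusted p = 0.209), limma-trend (adjusted p = 0.3), all scGRO–seq batches (adjusted p = 0.0613) and without AGTuC replicate 1 or 2 (-0.78 and -1.07). Zmat3 and Trp53inp1 lost theirs with limma-trend (-0.70 and -0.84, adjusted p = 0.108 and 0.133) and all batches (-1.06 and -0.79, adjusted p = 0.0554 and 0.147). Without AGTuC replicate 2 Trp53, Zmat3 and Trp53inp1 gave -1.12, -0.69 and -0.86 and lost theirs too. The summed body level of the ES cell markers, given above, was higher in AGTuC as well, and the antisense share of the 6 spans was lower there, at 2.906% to 9.579% against 16.07% to 26.89% in inAGTuC and 20.44% to 34.33% in scGRO–seq. Their part in the difference was not tested.

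Between scGRO–seq and inAGTuC no member passed in body level, where limma called 0% of 14812 genes in either direction and 812 had an unadjusted p under 0.05. Cdkn1a was lowest, at -1.51 ± 0.47 (p = 0.004481, adjusted p = 0.8602). It reached -2.22 and was called without inAGTuC replicate 4, the library with its lowest inAGTuC level. Ccng1 was at 0.10 ± 0.36, and Trp53, Mdm2, Zmat3 and Trp53inp1 lay between -0.48 and -0.32. Among the 10 batches limma's moderated F test over libraries called none of the 6 genes, beside 31.7% of 11726 genes. Mdm2 came nearest (adjusted p = 0.07275), then Trp53inp1 (0.0856) and Trp53 (0.1087), and Zmat3 was farthest (0.6527). Mdm2 passed without Exp211 (adjusted p = 0.0442) and Cdkn1a without Exp260 (0.0467).

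Per length, the body of Cdkn1a had 18.68 ± 2.21 UPM per kb in AGTuC (SD, n = 2), 6.557 ± 3.96 in inAGTuC (n = 4) and 2.486 ± 1.53 in scGRO–seq (n = 10). Without the 500 bp after the inner start, which are promoter-proximal, it had 10.8 ± 0.76, 5.301 ± 2.71 and 1.788 ± 0.94. By these values it was no longer first in AGTuC and stayed last in scGRO–seq. Their length still holds the stretch between the 2 starts, where reads were few. The density past the inner window alone would be higher and was not computed. With that window counted, Trp53 (14.61 ± 2.16), Mdm2 (13.78 ± 1.49) and Ccng1 (10.35 ± 1.42) followed Cdkn1a in AGTuC, then Trp53inp1 (6.028 ± 0.79) and Zmat3 (5.534 ± 0.75). By their library values Trp53 and Mdm2 overlapped, as did Trp53inp1 and Zmat3, while Cdkn1a lay above Trp53, Mdm2 above Ccng1 and Ccng1 above Trp53inp1 in both libraries. In scGRO–seq the order was Trp53 (6.434 ± 3.32), Ccng1 (5.684 ± 2.15), Mdm2 (5.264 ± 2.20), Zmat3 (3.219 ± 0.85), Trp53inp1 (3.15 ± 1.50) and Cdkn1a, and the batch values of all neighbours overlapped. Against all genes with a UMI the 6 genes were dense, from percentile 87.79 (Zmat3) to 98.16 (Cdkn1a, that window included) in AGTuC, and Cdkn1a stood at 87.81 in scGRO–seq. Along the body, the first of 3 equal parts held 52.28% of Mdm2 and 48.21% of Cdkn1a body UMIs in AGTuC. In scGRO–seq it held 36.24% and 38.46%. In Cdkn1a this part includes the 500 bp after the inner start, with 44.82% of body UMIs in AGTuC and 23.08% in scGRO–seq. In Mdm2 it includes the 500 bp after the promoter window, with 21.13% and 3.488%. For both genes the share of the first part is thus no measure of a slope along the body. For Ccng1, Zmat3 and Trp53inp1 the last part held most in every assay, from 37.96% to 50.0% over the 3 genes. In AGTuC the first part was nearly level with it for Ccng1 (72 against 73 UMIs) and Zmat3 (211 against 222).

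Past the annotated ends the assays parted further. In the 5 kb after the end AGTuC had 45.02 sense UMIs for each 100 on the span for Trp53, 30.4 for Mdm2, 60 for Ccng1, 34.69 for Zmat3, 26.48 for Trp53inp1 and 10.39 for Cdkn1a. The library values of Ccng1 were 59.62 and 60.19, and those of Trp53 51.6 and 42.37. inAGTuC had 2.913, 1.449, 5.319, 2.881 and 5.806 for the first 5 and none in 108 span UMIs for Cdkn1a. scGRO–seq had 4.019, 2.607, 4.945, 3.448, 10.06 and 3.409. On the opposite strand of the same window Trp53inp1 had 73 UMIs against 32 in scGRO–seq and 19 against 9 in inAGTuC, and Ccng1 18 against 9 and 6 against 5. Over all genes compared the opposite strand also held more in both assays (546389 against 270907 and 188530 against 112802), but not in AGTuC (399630 against 847882). AGTuC exceeded all inAGTuC libraries for each gene, and exceeded all batches for Trp53, Mdm2, Ccng1 and Zmat3. Pooled over the 18759 genes with no other gene on that strand in the window the values were 23.83, 6.422 and 5.856. Of the 6 genes 5 lay above the pooled value in AGTuC and all 6 below it in inAGTuC. The share of all genes on either side was not counted, so that these counts set the 6 genes apart from no background. Span length bears on a ratio to a fixed window and was not matched. Its median was 14727 bp for the 6 genes and 29126 bp for all genes tested for body level. No other gene lies on that strand within 5 kb of the 6 ends. This window was added after other values of the genes had been seen and carries no test.

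Other targets of p53 were counted from a list of 34 genes, and regulators and partners of p53 from a list of 18. In promoter-to-body ratio 18 of 32 tested targets were higher and 1 lower in AGTuC than in inAGTuC, with a median of 1.42, beside 72.4% and 0.975% of all genes and their median of 2.40, and 13 of 16 regulators were higher, with a median of 2.97. Against AGTuC, scGRO–seq had 23 targets lower and 1 higher, and 15 regulators lower, with medians of -2.30 and -2.96, beside 79.2% of all genes lower, 1.66% higher and their median of -2.42. The largest promoter shares in AGTuC were those of Dcxr (78.75%), a carbonyl reductase, Rrm2b (73.36%), a ribonucleotide reductase subunit for DNA repair, and Phlda3 (68.41%), an inhibitor of Akt. Their ratios were 2.84, 4.88 and 3.22 higher than in inAGTuC on the log2 scale, which the choice by AGTuC share favours and which is given as a description. The smallest were those of Sesn1 (0.692%), a stress sensor of mTOR signalling, the lncRNA gene Pvt1 (0.813%) and Fbxw7 (0.9126%), a subunit of a ubiquitin ligase. Chosen by the same share, these had log2 differences of -1.08, -0.08 and 0.00. In AGTuC Sesn1 and Fbxw7 rest on 2 and 7 promoter UMIs and Dcxr on 17 body UMIs. The share also falls with gene length and misses inner starts, and neither was accounted for.

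**Figure D4:**
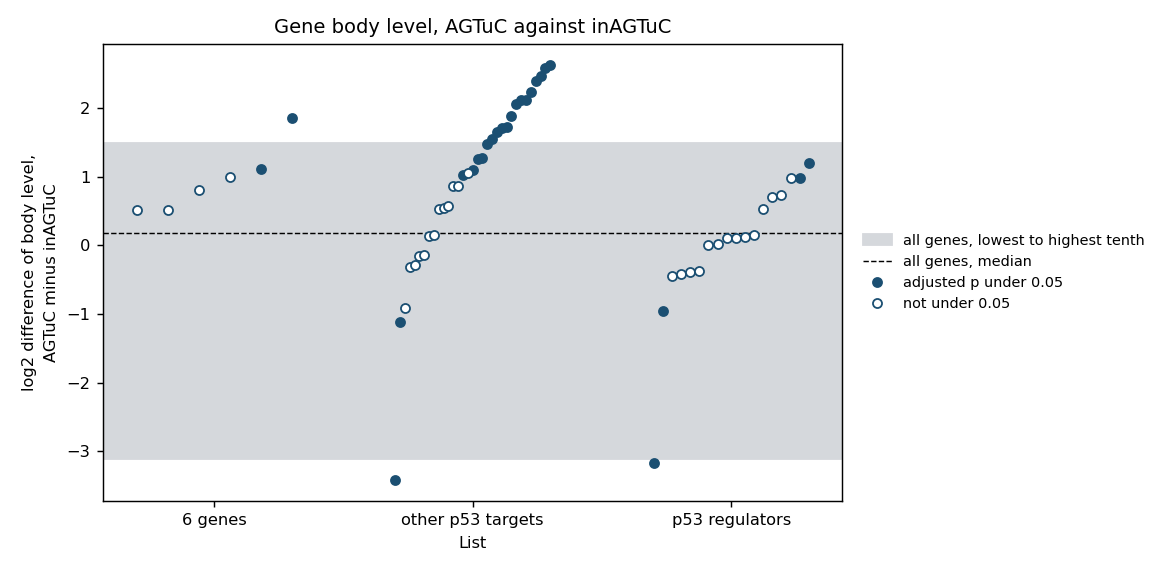
Log2 difference of body level between AGTuC and inAGTuC for the 6 genes, the other p53 targets and the p53 regulators, each list sorted by value, with filled points at an adjusted p under 0.05. The grey band spans all genes but those with the lowest and the highest 10% of values and the dashed line is their median of 0.18; the targets reach above the band, with 18 of 33 called higher.

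In body level, of 33 tested targets 18 were higher and 2 lower in AGTuC than in inAGTuC, beside the 17.1% and 16.9% of all genes, and their median was 1.10 against 0.18. Of 18 regulators 2 were higher and 2 lower, with a median of 0.11. In scGRO–seq against AGTuC 22 targets were lower and 2 higher, with a median of -1.14 against -0.35, and 4 of 18 regulators were lower and 1 higher, beside 32% of 14812 genes lower and 19.9% higher. With the body from 2 kb after the start, 12 of 29 targets were higher in AGTuC and 2 lower, beside 14.6% and 17.42% of all genes. The targets were also shorter and denser than most, with a median length of 18182 bp and 5.46 UPM per kb in AGTuC. Regulators had 51445 bp and 2.202, and all genes 29126 bp and 1.514. The part of length and density in these counts was not tested. Without AGTuC replicate 2 the calls over both lists fell from 24 to 6, without replicate 1 to 12 and without inAGTuC replicate 4 to 14. Between scGRO–seq and inAGTuC no gene of either list was called, and between batches 9 of 26 targets and 6 of 18 regulators were, beside the 31.7% of all genes.

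For Trp53, Mdm2, Cdkn1a, Ccng1 and Zmat3 the 2 genes whose log2 body level followed each most closely over the 16 samples, of 5551 searched, were Ctcf and Tbk1 for Trp53 (Pearson r = 0.9031 and 0.8912), Rps24 and Mybl2 for Mdm2 (0.9229 and 0.8945), Ryr1 and Srebf1 for Cdkn1a (0.9536 and 0.937), Dhx9 and Hnrnpu for Ccng1 (0.9258 and 0.9133), and Rabgef1 and Dap3 for Zmat3 (0.887 and 0.8809). The samples share assay and depth, and the values describe these libraries alone.

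In single cells UMIs of the genes were detected in few nuclei, which is not the share of nuclei that transcribe them. The study estimates that only a small part of nascent RNA is captured. Reads dropped as shared between libraries were 33.66% to 49.42% of the members' UMIs in scGRO–seq. Of 2512 kept cells 17.95% had a sense UMI of Mdm2, 16.92% of Zmat3, 14.85% of Trp53, 11.15% of Trp53inp1, 6.887% of Ccng1 and 3.384% of Cdkn1a. On the antisense strand of the same spans the shares were 5.016%, 5.693%, 6.051%, 4.817%, 1.871% and 1.831%, so that the ratio to the opposite strand was lowest for Cdkn1a, with 85 cells against 46. Shares ran widely between batches, for Mdm2 from 9.127% in Exp263 to 29.85% in Exp208 and for Cdkn1a from 0.9452% in Exp260b to 7.609% in Exp160. Cells with a UMI of Trp53 had a median of 4305 UMIs and cells without 3335, and the gap was widest for Trp53inp1, at 5386 and 3314. Each share was set against the number of cells expected if the UMIs of a library were dealt to its cells by depth. The observed number over the expected was 1.011 for Trp53, 1.015 for Mdm2, 0.9999 for Cdkn1a, 1.007 for Ccng1, 1.007 for Zmat3 and 1.003 for Trp53inp1, beside a median of 0.9876 over 12095 genes, of which 26.23% lay above 1, with an upper decile of 1.011. Trp53 and Mdm2 thus stood at or above that decile. Every counting interval of the 6 genes held 1, but these intervals are too wide to decide anything. The expectation keeps the UMIs of a gene fixed, so that its cells cannot outnumber them. The number of cells varies only through UMIs that share a cell, which a Poisson interval of the whole count ignores. With 88 UMIs of Cdkn1a and 182 of Ccng1 beside 85.01 and 171.9 expected cells, their intervals could not exclude 1 from above. The place among all genes also depends on a gene's number of UMIs, which was not matched. Cells with 2 or more UMIs of the same gene numbered 37 for Trp53 where 45.79 were expected, a ratio of 0.808 (95% interval 0.5689 to 1.114), and the ratio was 0.9115 for Mdm2, 1.042 for Cdkn1a, 0.9465 for Ccng1, 0.955 for Zmat3 and 0.9712 for Trp53inp1. These intervals held 1 for all 6 genes as well.

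**Figure D5:**
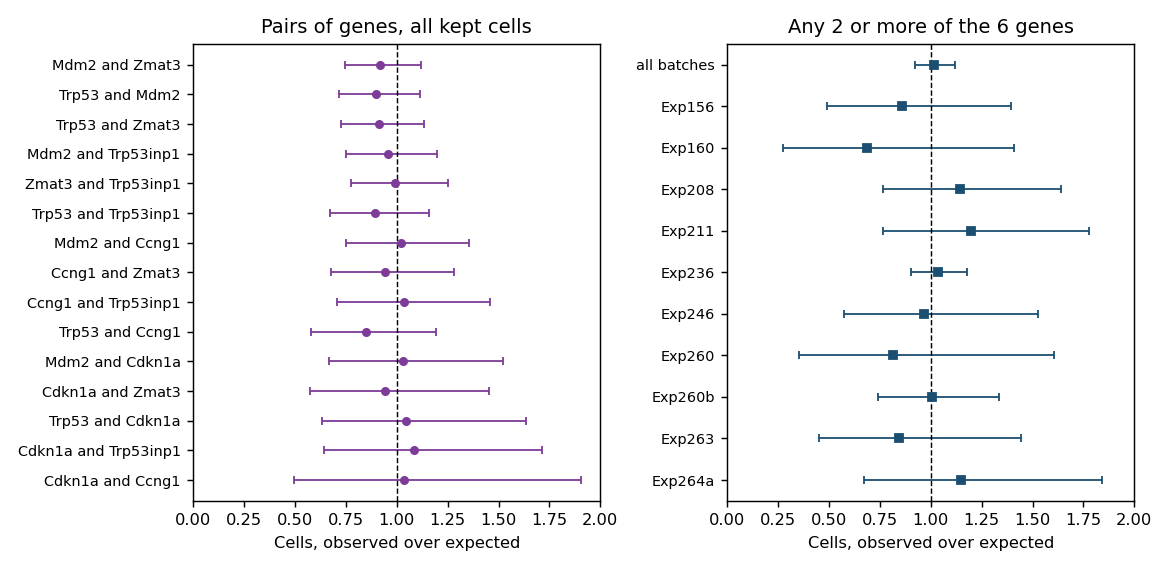
Observed over expected number of kept cells with UMIs of both genes of each of the 15 pairs (left) and of 2 or more of the 6 genes by batch (right), where the expected number deals the UMIs of each library to its cells by depth. Bars are 95% Poisson intervals of the observed number and the dashed line is 1; every interval spans 1, and the value over all batches is 1.017.

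No excess of cells with several of the genes was detected over that expected from depth. Of the kept cells 409 had UMIs of 2 or more of the 6 genes and 402.1 were expected, a ratio of 1.017 (95% interval of the count 0.9209 to 1.121). By batch the ratio ran from 0.6842 in Exp160 to 1.196 in Exp211, and each interval held 1. Mdm2 and Zmat3, the pair with most shared cells, met in 100 cells where 108.9 were expected (0.9182, 0.7471 to 1.117). Trp53 and Mdm2 met in 83 cells against 92.52 (0.8971, 0.7146 to 1.112), and Trp53 and Zmat3 in 81 against 88.69 (0.9133, 0.7253 to 1.135). The 15 pairs lay between 0.8466 (Trp53 and Ccng1, both on chromosome 11) and 1.085 (Cdkn1a and Trp53inp1). Over all pairs of genes with 5 or more expected cells the median was 0.9665 and 38.88% were above 1. These were genes with a UMI in 50 or more cells, on different chromosomes or more than 1 Mb apart. Their expected number multiplied the chances of both genes in each cell, while that of the 6 genes was the exact joint value. At this depth an excess of shared cells under about the upper bounds given could not be detected.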

How the data were processed

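The authors removed adaptors and PCR duplicates by UMI and deposited 82 read lists, 1 per library, of AGTuC (2), inAGTuC (4) and scGRO–seq (76). The submitters' processing notes name cutadapt, UMI-tools and Bowtie2. The only value the authors deposited per read is a score, its mapping quality, which was not used as a level, so that all counts are entries (UMIs) computed here. An entry's strand is opposite to that of its RNA, as checked against genes (73.37% sense).

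Reads that several libraries held alike in position, strand, barcode and UMI were dropped, which removed 0 to 0.8913% of the members' UMIs in AGTuC, 21.17% to 33.19% in inAGTuC and 33.66% to 49.42% in scGRO–seq. The scGRO–seq list of Exp261_c16 repeats the inAGTuC list of that name and was not used. Cells needed 1000 UMIs and 750 genes (the study counts enhancers as features too, which can only lower the number kept here), and libraries 24 kept cells. The 10 batches are those named in the study's quality figure, and the labels do not mark which batches passed. Exp261, with 2 scGRO–seq libraries that met these minimums, is not among them. The distance from a start uses RefSeq spans of GRCm38.

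limma 3.58.1 in R 4.3.3 fitted all 16 samples with assay as the only term, two-sided, with Benjamini–Hochberg adjustment over all genes and a threshold of 0.05. The ratio is log2((promoter UMIs + 0.5)/(body UMIs + 0.5)) for genes with 50 UMIs and 10 promoter UMIs, with weights from expected counts and from the spread beyond counting error. Fold changes on this scale understate those of low counts. Body level was fitted by voom scaled to total body UMIs. Errors are SE unless SD is named. Fits were tested on simulated data with changes planted in well-read genes and the same spread in every sample. That test does not bear on genes with few UMIs. Wilson and Poisson intervals are at 95% and cover counting error only. The members, lists and tests were chosen with earlier results of these data known. The genes named are the 6, the lists' 3 largest and 3 smallest promoter shares, overlapping or adjoining genes, the 2 most similar genes (not reported here for Trp53inp1) and the 3 most shared pairs. Alternatives were the promoter window, pseudocount, weights, filters, normalization, reads and cells counted, and leaving out each library or batch.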

Additional observations from a re-analysis of the deposited data

Results flagged for a closer look

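Of 43 groups of 4 or 10 samples, 8 had a highest sample far from the others by Dixon's test. For normally distributed values chance gives this in about 1 in 20 groups. Several groups are shares of few UMIs with samples at 0, where that rate does not hold, so that the 8 cannot be set against it. inAGTuC replicate 3 (Exp234_c11) was the far sample in 4 of the 8 groups, with a Trp53 promoter share of 17.95% (next 5.556%), a Cdkn1a share at the outer start of 2.326% (1 UMI, others 0), and antisense shares of 32.35% for Cdkn1a (next 20%) and 46.6% for Zmat3 (next 17.24%). Its antisense share over all genes was 52.39%. Without it Trp53 kept a higher ratio in AGTuC than in inAGTuC.

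In scGRO–seq, batch Exp156 had the highest body level of Trp53 (150.5 UMIs per 1000000 body UMIs, next 81.52, from 22 UMIs) and of Ccng1 (61.58, next 37.61, from 9 UMIs). Exp160 had a Ccng1 promoter share of 42.86% (3 of 7 UMIs, next 18.18%). Exp263 had a Cdkn1a share of 25.0% at the outer start (1 of 4 UMIs, next 11.11%).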

How the results depend on the processing

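Without weights, members called for the ratio went from 3 to 0 (AGTuC against inAGTuC) and from 5 to 0 (scGRO–seq against AGTuC), and genes of both pathway lists to 19 and 20. In the first, Trp53 and Trp53inp1 then gave 1.14 ± 0.98 and 2.11 ± 1.08 beside 1.25 ± 0.44 and 2.61 ± 0.61, so that the error grew more than the estimate fell. A pseudocount of 2 left 1 and 2 members. For body level, limma-trend with a prior count of 2 left 0 and 3 members and 8 and 17 list genes, and all scGRO–seq batches 1 and 3 members and 11 list genes in the first comparison. In that comparison Mdm2 and Cdkn1a gave 1.06 ± 0.41 and 1.62 ± 0.67 with limma-trend, beside 1.11 ± 0.29 and 1.86 ± 0.47. With all batches Mdm2 gave 1.11 ± 0.48. All deposited reads gave 2 members called between batches in place of 0. The cause of the other losses was not tested. In scGRO–seq against inAGTuC, where nothing was called, signs turned in the ratio for Trp53 (-0.17 with 250 bp, -0.42 with all deposited reads), Mdm2 (-0.07 and -0.03), Trp53inp1 (-0.02 with a pseudocount of 2, -0.40 with all deposited reads), and Ccng1 and Zmat3 (0.13 and 0.12 in Exp208 and Exp261 with batch as a term). In body level they turned for Mdm2 (0.31 in libraries of Exp208), Ccng1 (-0.04 with all deposited reads, -0.40 in Exp208 and Exp261) and Trp53inp1 (0.13 in Exp208 and Exp261).

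Leaving out single libraries or batches gave 0 to 4 and 0 to 5 members called for the ratio, 0 to 1 in scGRO–seq against inAGTuC, and 21 to 36 and 20 to 41 list genes. For body level it gave 0 to 4, 2 to 6 and 0 to 1 members, 6 to 26, 16 to 31 and 0 to 2 list genes, and 0 to 1 members between batches. The ratio ranged from -0.73 to 1.39 for Ccng1 in AGTuC against inAGTuC. In scGRO–seq against inAGTuC it ranged from -0.15 to 0.55 for Trp53, -0.38 to 0.75 for Mdm2 and -1.33 to 0.77 for Trp53inp1, and body level from -0.17 to 0.62 for Ccng1. In settings other than leaving out a sample, 127 counts and cell ratios stayed within a set tolerance of the main value and those given above did not. The tolerance was a fixed fold for counts, so that some of them changed, and the main counting interval for cell ratios. That interval is too wide for cells with a UMI of a single gene. Of the values of single genes 569 kept their call or lack of one, or stayed within the main spread where no test was made. Of the others 27 lost a call, 4 gained one, 8 moved and 12 turned sign. The body windows without every start or from 2 kb, the density of Cdkn1a without its inner window, the cell shares with all deposited reads or without each batch, and the pairs with UMIs within 50 bp once were chosen after seeing the data. Depth limits Cdkn1a most, with 78 body UMIs over 10 batches. AGTuC rests on 2 libraries, and leaving out either assumes that the other varies like the remaining groups.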
